A study of Mus musculus with 21 samples.

Results

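The genes described here are 10 mouse genes of protein folding in the endoplasmic reticulum (ER) and of the unfolded protein response: Hspa5, Hyou1, Dnajb9, Dnajc3, Sdf2l1, Pdia4, Herpud1, Xbp1, Creld2 and Manf. They were picked by symbol, and each symbol matched 1 Ensembl gene, so 10 of the 52636 gene IDs in the count table are described. RNA was sequenced from 21 livers of wild-type mice. The mice had eaten normal chow for 8 weeks (chow livers, labelled week 0, n = 5), CDA-HFD for 8 weeks (8-week livers, n = 8) or CDA-HFD for 16 weeks (16-week livers, n = 8). CDA-HFD is a name in common use for a choline-deficient, amino-acid-defined high-fat diet that is fed to mice to model fatty liver with inflammation and scarring; the labels do not spell it out. The labels give no strain, sex, age or batch. No chow livers were collected beside the 16-week livers, so the effect of age and that of a longer diet cannot be told apart. Whether the chow livers, labelled week 0, match the 8-week livers in age is not given. Age and diet may therefore be mixed in that comparison too. The labels number each sample but do not say outright that each is another mouse, so the p-values measure the spread between these samples, part of which may be technical.

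Secreted and membrane proteins fold in the ER, where the Hsp70 chaperone BiP (Hspa5) binds unfolded chains together with J-domain cochaperones and a nucleotide exchange factor. When unfolded proteins accumulate, the membrane sensors IRE1, PERK and ATF6 start the unfolded protein response: IRE1 splices Xbp1 mRNA into the form that encodes an active transcription factor, ATF6 is cut to release a second factor, and PERK phosphorylates eIF2alpha. Hepatocytes secrete most plasma proteins and carry a large ER, and all 10 genes are known targets of this response. Splicing of Xbp1 mRNA cannot be read from counts per gene.

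Promoters of such genes are known for the ER stress response element (ERSE), at which the factor NF-Y meets the CCAAT end and ATF6 or XBP1 the CCACG end. The 250 bases before the RefSeq start of each gene (GRCm38.p6) were searched on both strands for ERSE (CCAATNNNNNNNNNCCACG), ERSE-II (ATTGG, any single base, CCACG) and the core of the unfolded protein response element (TGACGTGG). The promoter table held 8 of the 10 genes, without Hyou1 and Manf. ERSE stood in 3 of the 8, Hspa5, Dnajc3 and Creld2, and in 0.113% of all 32851 promoters searched. ERSE-II stood in 1 of the 8, Herpud1, and in 0.0304% of all promoters. The core TGACGTGG stood in 0 of the 8 and in 0.563% of all promoters. The short parts are common: a CCAAT box stood in 7 of the 8 genes and in 33.8% of all promoters, and CCACG in 6 of the 8 and in 28.3% of all promoters. Both parts overlap the longer elements, since ERSE-II holds a CCAAT box on its other strand. The 4 promoters with a longer element are shown because 2 of them belong to genes that fell and 2 to genes whose change from chow did not pass the test. Each is the 150 bases just before the start, on the + strand: Hspa5 at chr2:34771940-34772089, Dnajc3 at chr14:118937782-118937931, Herpud1 at chr8:94386279-94386428 and Creld2 at chr15:88819496-88819645. Capitals mark ERSE or ERSE-II; in Creld2 the element reads on the opposite strand. A match of letters is a description and not a measured binding site.
Hspa5: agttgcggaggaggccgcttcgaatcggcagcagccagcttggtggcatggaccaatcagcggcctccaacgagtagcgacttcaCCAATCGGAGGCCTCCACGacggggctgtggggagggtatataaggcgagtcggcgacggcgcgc
Dnajc3: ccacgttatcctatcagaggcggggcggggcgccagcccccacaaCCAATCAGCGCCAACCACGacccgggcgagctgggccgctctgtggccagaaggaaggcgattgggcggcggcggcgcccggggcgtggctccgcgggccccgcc
Herpud1: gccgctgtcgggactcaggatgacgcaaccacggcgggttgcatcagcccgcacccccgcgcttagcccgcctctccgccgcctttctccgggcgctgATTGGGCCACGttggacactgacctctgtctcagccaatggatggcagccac
Creld2: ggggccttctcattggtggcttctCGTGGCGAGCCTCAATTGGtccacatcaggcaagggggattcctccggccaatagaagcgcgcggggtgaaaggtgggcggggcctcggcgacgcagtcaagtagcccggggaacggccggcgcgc

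Expression is given as CPM, counts scaled to the same effective library size, with TMM factors that are set so that most genes do not shift between libraries. The factors were 0.811 to 0.879 in chow, 0.496 to 1.17 in 8-week and 1.15 to 1.3 in 16-week libraries. Chow and 16-week factors did not overlap, so this scaling went along with the group. Total counts were 33522456 to 42586342 in chow libraries, 29037525 to 45868842 in 8-week libraries and 35254088 to 48901145 in 16-week libraries, and the 10 genes had between 309 and 70505 reads per library. The 10 hepatocyte markers summed to at least 81339.4 CPM in every library. Replicate 3 of the 8-week group stood apart: it correlated with the rest of its group at 0.813 to 0.883 (log2 CPM), against 0.948 to 0.991 among the other 7, and took 0.25% of its counts from mitochondrial genes, while the remaining CDA-HFD libraries took 2.22% to 3.18%. Its TMM factor was 0.496 and its markers of muscle summed to 2725.0 CPM. Exocrine pancreas markers summed to 9264.7 CPM in 8-week replicate 4 and 434.6 CPM in replicate 5, and to at most 80.7 CPM in all other libraries. Squamous epithelium markers were above 80 CPM in 8-week replicates 3 and 6 and 16-week replicates 1, 4 and 7, and at most 0.889 CPM in chow libraries. Macrophage markers summed to 431.8 to 578.3 CPM in chow, 1924.6 to 7582.0 CPM in 8-week and 2924.8 to 4917.5 CPM in 16-week libraries. For the 10 genes, results that rest on 8-week replicate 3 are given with and without it. Counts of markers and gene lists use all libraries unless stated.

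After 8 weeks of CDA-HFD, Manf was higher and Dnajc3 and Herpud1 were lower than in chow livers, and the other 7 genes did not pass the test. After 16 weeks, Dnajc3, Herpud1 and Hyou1 were lower than in chow livers, and Manf did not differ from chow beyond the spread. Between the diet groups, Manf, Creld2, Sdf2l1 and Dnajc3 were lower at 16 than at 8 weeks. These calls use TMM scaling. With total counts the calls of Manf at 8 weeks and of Dnajc3 against chow at both times held. Herpud1 and Hyou1 were then not called, and Manf was called higher than chow at 16 weeks. None of the falls between 16 and 8 weeks was called with total counts, where 245 of 17104 genes fell. A gene counted as changed when its Benjamini-Hochberg adjusted p, over all 17104 genes tested with edgeR's quasi-likelihood test, was under 0.05. By this rule 3 of 10 genes changed in 8-week livers, where 51.3% of all genes did (30.8% higher and 20.5% lower). In 16-week livers 3 of 10 fell, where 51.9% of all genes changed (29.4% higher and 22.5% lower). Between 16 and 8 weeks 4 of 10 fell, where 21.6% changed (10.6% higher and 11.0% lower). In no gene of the 10 were all 16-week livers apart from all 8-week livers, as 2.58% of all genes were on the higher side and 0.509% on the lower side. Bulk tissue was sequenced, so fewer cells of a type and less RNA per cell cannot be told apart.

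The median log2 change of the 10 genes was 0.06 in 8-week livers against chow, where that of all genes was 0.16. In 16-week livers against chow it was -0.29, where that of all genes was 0.03, and between 16 and 8 weeks it was -0.47, where that of all genes was 0.00. Scaling on total counts alone raised the median of all genes by 0.12, 0.53 and 0.38 in these 3 comparisons. Measured from the median of all genes, the changes of the 10 genes under the 2 scalings lay within 0.1, 0.02 and 0.1 of each other. Subtracting that median takes out a shift shared by all genes, so this closeness was largely built in. Without that reference point the signs did not hold: in 16-week livers 9 of 10 changes were negative with TMM and 3 with total counts, and between 16 and 8 weeks 10 were negative with TMM and 8 with total counts, of which none was called by edgeR (at an unadjusted p under 0.05, 1 fell). Without 8-week replicate 3 and with TMM scaling, all 10 genes were lower at 16 than at 8 weeks (log2 change -0.68 to -0.33, adjusted p 0.0018 to 0.0299), where 14.8% of all genes rose and 12.5% fell. In the same fit 2 of 10 rose and 2 fell in 8-week livers against chow, where 31.5% of all genes rose and 25.8% fell, and in 16-week livers none rose and 5 fell, where 34.9% rose and 31.4% fell.

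**Figure D1:**
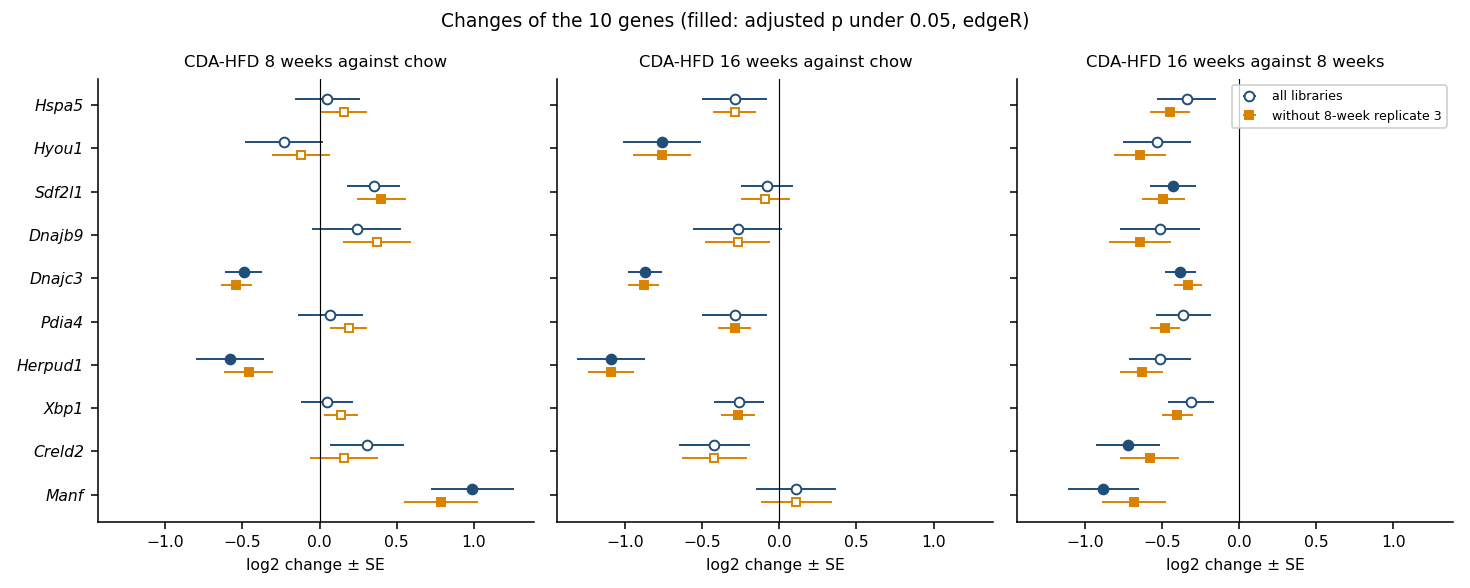
Log2 change with its standard error for each of the 10 genes (rows) in the 3 comparisons (panels), from edgeR with TMM scaling, for all libraries (circles) and without 8-week replicate 3 (squares). Filled symbols have an adjusted p under 0.05: in the right panel 4 circles and all 10 squares are filled, all left of 0 with TMM scaling, while with total counts none is called and Xbp1 and Dnajc3 lie right of 0.

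The Hsp70-type chaperones came first. Hspa5 (ENSMUSG00000026864, chr2:34771970-34777547, + strand; GENCODE M21 on GRCm38, here and below) encodes BiP, the main ER Hsp70 and the usual marker of ER stress. It had 855.7, 1036.7, 1121.7, 1509.6 and 1214.2 CPM in the chow livers. In 8-week livers its lowest, median and highest values were 462.9, 1255.8 and 1485.8 CPM, and in 16-week livers 708.1, 887.7 and 1287.0 CPM. The 3 groups overlapped, and the lowest of all 21 values was that of 8-week replicate 3. Hspa5 averaged 1191.2 ± 323.7 CPM in 8-week livers and 1147.6 ± 241.7 CPM in chow livers (SD, n = 8 and 5), a log2 change of 0.05 ± 0.21 (SE; edgeR adjusted p = 0.843). In 16-week livers it averaged 940.8 ± 183.6 CPM, with a log2 change from chow of -0.29 ± 0.21 (adjusted p = 0.269) that read 0.24 with total counts. From 8 weeks the change was -0.34 ± 0.19 (adjusted p = 0.189). Without 8-week replicate 3 it was -0.45 ± 0.13 and passed the test (adjusted p = 0.0144). With total counts and all libraries the change from 8 weeks was -0.01 (edgeR adjusted p = 0.974).

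Hyou1 (ENSMUSG00000032115, chr9:44379490-44392369, + strand) encodes GRP170, a large Hsp70 relative that acts as a nucleotide exchange factor for BiP. Its chow values were 151.1, 216.1, 274.2, 324.6 and 273.1 CPM. In 8-week livers it ran over 77.04, 218.1 and 299.6 CPM (lowest, median, highest) and in 16-week livers over 101.0, 138.7 and 216.3 CPM. The 16-week livers lay low, with 6 of 8 below every chow liver, but overlapped them through 16-week replicates 3 and 4. Hyou1 fell to 146.4 ± 34 CPM in 16-week livers, against 247.8 ± 66.3 CPM in chow livers, a log2 change of -0.76 ± 0.25 (adjusted p = 0.0129) that was -0.24 and not called with total counts (adjusted p = 0.529). In 8-week livers the change was -0.23 ± 0.25 (adjusted p = 0.441). Between 16 and 8 weeks it was -0.53 ± 0.22 (adjusted p = 0.0837), and -0.64 without 8-week replicate 3 (adjusted p = 0.00885). With total counts and all libraries it was -0.21 (edgeR adjusted p = 0.546).

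Of the cochaperones, Dnajc3 (ENSMUSG00000022136, chr14:118937976-118981697, + strand) showed the tightest groups. It encodes p58IPK, a J protein that hands unfolded chains to BiP and is also described as an inhibitor of PERK. It had 371.5, 372.0, 366.7, 417.8 and 405.1 CPM in the chow livers. Its lowest, median and highest values were 212.5, 276.9 and 325.2 CPM in 8-week livers and 170.4, 205.3 and 253.9 CPM in 16-week livers. All 16 CDA-HFD livers lay below all 5 chow livers. Dnajc3 fell to 275.2 ± 38.7 CPM in 8-week livers, against 386.6 ± 23.2 CPM in chow livers, a log2 change of -0.49 ± 0.12 (edgeR adjusted p = 0.00156). In 16-week livers it fell to 211.6 ± 28.7 CPM, a log2 change of -0.87 ± 0.11 from chow (adjusted p = 2.01e-06). Both calls held with total counts, at -0.37 (adjusted p = 0.0289) and -0.35 (adjusted p = 0.0349). The 16-week livers were lower than the 8-week livers by TMM, at -0.38 ± 0.10 (adjusted p = 0.0137), but not by total counts, at 0.03 (adjusted p = 0.859), and the 2 groups overlapped. Groups that did not overlap were not rare: 14.8% of all genes were lower in every 8-week liver than in every chow liver, and 23.3% were so in 16-week livers (27.2% were higher). Of 10 hepatocyte markers, 1 was called higher and 5 lower at 8 weeks, where 30.8% and 20.5% of all genes were. At 16 weeks none was called higher and 6 lower, where 29.4% and 22.5% of all genes were (median log2 change -0.17 and -0.88). With total counts 2 were higher and 3 lower at 8 weeks, and none higher and 4 lower at 16 weeks. Their summed medians were 146910.1 CPM in chow, 151883.5 CPM in 8-week and 92604.4 CPM in 16-week livers. The part of these markers in the result was not tested.

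Dnajb9 (ENSMUSG00000014905, chr12:44205559-44210326, - strand) encodes ERdj4, a J protein that binds misfolded chains and recruits BiP to the lumenal domain of IRE1. Its chow values were 51.89, 71.56, 70.79, 72.70 and 70.83 CPM, with 4 livers close together and 1 below them. In 8-week livers they were 21.48, 86.95 and 118.5 CPM (lowest, median, highest), and in 16-week livers 39.10, 46.73 and 105.0 CPM. In 8-week livers 6 of 8 lay above every chow liver, and in 16-week livers 5 of 8 lay below every chow liver. Neither change from chow passed the test, at 0.24 ± 0.29 for 8 weeks (adjusted p = 0.498) and -0.27 ± 0.29 for 16 weeks (adjusted p = 0.473), and the second read 0.25 with total counts. The 16-week livers averaged 56.2 ± 22.6 CPM and the 8-week livers 79.9 ± 29.6 CPM, a log2 change of -0.51 ± 0.26 (adjusted p = 0.155) that became -0.64 ± 0.20 without 8-week replicate 3 (adjusted p = 0.0198). With total counts and all libraries the change was -0.21 (edgeR adjusted p = 0.6).

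Sdf2l1 (ENSMUSG00000022769, chr16:17130138-17132383, - strand) encodes a small ER protein that forms a complex with the J protein Dnajb11. It had 33.35, 47.70, 45.26, 48.22 and 52.34 CPM in the chow livers. It ran over 40.40, 52.90 and 94.48 CPM in 8-week livers and over 37.27, 39.70 and 56.22 CPM in 16-week livers (lowest, median, highest). The groups overlapped, and the highest value belonged to 8-week replicate 4, the library with the most pancreas markers, whose part was not tested. The change in 8-week livers was 0.35 ± 0.17 (adjusted p = 0.0919), and 0.40 ± 0.16 without replicate 3 (adjusted p = 0.0409). Sdf2l1 fell to 42.9 ± 7.39 CPM in 16-week livers, against 57.9 ± 16.6 CPM in 8-week livers, a log2 change of -0.43 ± 0.15 (adjusted p = 0.0434). That call was narrow: it was lost without 8-week replicate 4, at -0.30 (adjusted p = 0.0965), and also without any one of 8-week replicates 2 and 5, 16-week replicates 1, 2, 5, 6, 7 and 8, and chow replicates 2, 3 and 4 (adjusted p 0.0519 to 0.0861). With total counts it was -0.07 and not called (adjusted p = 0.799). Against chow the 16-week change was -0.08 ± 0.17 (adjusted p = 0.717), and 0.44 with total counts.

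Pdia4 (ENSMUSG00000025823, chr6:47796141-47813430, - strand) encodes the disulfide isomerase ERp72. Its chow values were 238.7, 273.7, 274.3, 321.7 and 267.4 CPM. It had 96.65, 315.1 and 386.9 CPM in 8-week livers and 176.7, 223.0 and 291.6 CPM in 16-week livers (lowest, median, highest). The lowest value was again that of 8-week replicate 3, with the other 7 at 259.6 CPM or more. Pdia4 changed by 0.07 ± 0.21 in 8-week livers (adjusted p = 0.78) and by -0.29 ± 0.21 in 16-week livers (adjusted p = 0.263; 0.24 with total counts), neither past the threshold. Without 8-week replicate 3, which adds to the shared estimate of the spread, the 16-week value kept its size at -0.29 ± 0.11 and passed (adjusted p = 0.0263).

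Herpud1 (ENSMUSG00000031770, chr8:94386438-94395377, + strand) encodes an ER membrane protein of the Syvn1 (HRD1) ubiquitin ligase complex, which sends misfolded proteins to the proteasome. It had 370.3, 375.6, 303.9, 423.6 and 356.2 CPM in the chow livers. Lowest, median and highest values were 86.29, 265.9 and 318.2 CPM in 8-week livers and 125.6, 158.4 and 244.3 CPM in 16-week livers. The 16-week livers lay below all chow livers, and the 8-week livers overlapped chow only through replicates 1 and 7. Herpud1 fell to 171.8 ± 43.0 CPM in 16-week livers, against 365.9 ± 42.9 CPM in chow livers, a log2 change of -1.09 ± 0.22 (edgeR adjusted p = 0.00033), the lowest of the 10 genes. In 8-week livers it fell to 245.1 ± 74.9 CPM, a log2 change of -0.58 ± 0.22 (adjusted p = 0.0372), and -0.46 ± 0.16 without replicate 3 (adjusted p = 0.0171). With total counts the changes were -0.56 at 16 weeks (adjusted p = 0.107) and -0.37 at 8 weeks (adjusted p = 0.312), and neither was called. The 8-week call was also lost without 8-week replicate 5 or without any of chow replicates 1, 2, 4 and 5 (adjusted p 0.0561 to 0.0891).

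Xbp1 (ENSMUSG00000020484, chr11:5520659-5525893, + strand) encodes the transcription factor of the IRE1 arm. Its chow values were 313.0, 267.7, 364.9, 390.5 and 327.1 CPM. It had 167.2, 351.5 and 438.0 CPM in 8-week livers and 228.6, 278.0 and 314.2 CPM in 16-week livers (lowest, median, highest), with overlap between all groups. Xbp1 changed by 0.05 ± 0.17 in 8-week livers (adjusted p = 0.829) and by -0.26 ± 0.16 in 16-week livers (adjusted p = 0.196; 0.27 with total counts). Without 8-week replicate 3 the 16-week value was -0.27 ± 0.11 (adjusted p = 0.0346). Plasma cells are rich in Xbp1, and summed B and plasma cell markers were 129.7 to 1519.0 CPM in 16-week, 77.6 to 959.1 CPM in 8-week and 24.8 to 202.8 CPM in chow libraries; their part in these values was not tested.

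Creld2 and Manf encode soluble ER proteins that can be secreted. Creld2 (ENSMUSG00000023272, chr15:88819646-88826683, + strand) had 30.08, 37.43, 48.77, 58.54 and 52.67 CPM in the chow livers. It had 36.92, 54.56 and 90.81 CPM in 8-week livers and 23.65, 29.73 and 57.32 CPM in 16-week livers (lowest, median, highest). All groups overlapped, and the highest value was that of 8-week replicate 3. Creld2 fell to 34 ± 11.9 CPM in 16-week livers, against 56.3 ± 16.9 CPM in 8-week livers, a log2 change of -0.72 ± 0.21 (adjusted p = 0.0189) that was -0.28 and not called with total counts (adjusted p = 0.243). Its changes from chow were 0.31 ± 0.24 at 8 weeks (adjusted p = 0.284) and -0.42 ± 0.23 at 16 weeks (adjusted p = 0.141; 0.10 with total counts). Without 16-week replicate 4 the second was -0.57 and passed (adjusted p = 0.0344).

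Manf (ENSMUSG00000032575, chr9:106838312-106891979, - strand) encodes a BiP-binding protein first described as a neurotrophic factor. It had 67.70, 93.62, 110.2, 118.5 and 108.8 CPM in the chow livers. The 8 livers at 8 weeks had 166.7, 234.2, 367.3, 220.6, 137.8, 134.1, 193.6 and 133.8 CPM, and the 8 at 16 weeks had 93.22, 114.0, 174.1, 168.5, 76.58, 72.18, 89.78 and 74.99 CPM. Every 8-week liver was above every chow liver, as for 15.3% of all genes, and the 16-week livers overlapped both groups. Manf rose to 198.5 ± 78.6 CPM in 8-week livers, against 99.8 ± 20 CPM in chow livers, a log2 change of 0.99 ± 0.27 (edgeR adjusted p = 0.0052). Without replicate 3 it averaged 174.4 ± 42.3 CPM and the change was 0.79 ± 0.24 (adjusted p = 0.0078). Manf fell to 107.9 ± 41.4 CPM in 16-week livers, against the 8-week mean, a log2 change of -0.88 ± 0.23 (adjusted p = 0.0124) that was -0.41 and not called with total counts (adjusted p = 0.114). Against chow the 16-week change was 0.11 ± 0.26 (adjusted p = 0.749), but 0.63 and called with total counts (adjusted p = 0.022). The annotated Manf gene overlaps Rbm15b on its own strand and Dcaf1 on the other, and how shared reads were counted is not given in the sources used here. In the 8-week livers Rbm15b changed by -0.30 (adjusted p = 0.061) and Dcaf1 by -0.96 (adjusted p = 0.00394).

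**Figure D2:**
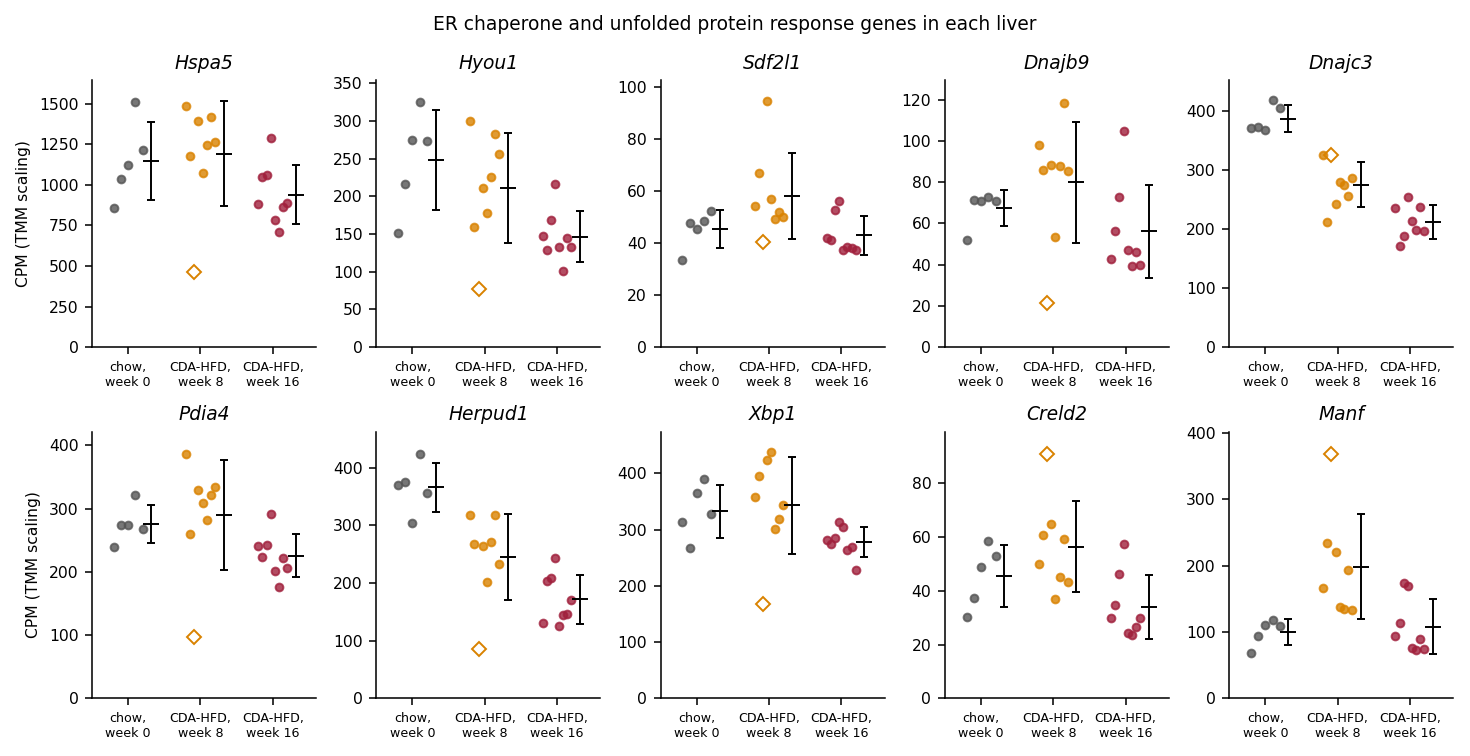
CPM of the 10 genes (panels, each from 0) in each liver of the chow, 8-week and 16-week groups; points are livers, the open diamond is 8-week replicate 3, and the bar beside each group is its mean with SD. Dnajc3 lies below all chow livers in all 16 CDA-HFD livers, Manf lies above all chow livers in all 8-week livers, and the diamond is lowest of its group in 7 panels and highest in 3.

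The ratio of each gene's reads to those of Hspa5 in the same library does not depend on how libraries are scaled, and was added after the values had been seen. Herpud1 reads were 18.5% to 22.6% of Hspa5 reads in 8-week livers and 14.7% to 20.3% in 16-week livers, against 27.1% to 43.3% in chow livers. Neither diet group overlapped chow, and 8-week replicate 3, at 18.6%, lay within its group. How many of all genes part from chow in their ratio to Hspa5 was not computed, here or for the ratios below. In CPM, 14.8% of all genes were lower and 15.3% higher in every 8-week liver than in every chow liver. In 16-week livers 23.3% were lower. Such gaps in CPM were thus not particular to these genes, but these shares do not give the share for ratios. The log2 ratio differed from chow by -0.67 at 8 weeks and by -0.84 at 16 weeks (exact two-sided permutation test, p = 0.000777 for each, the smallest that 8 against 5 libraries allow; adjusted p = 0.00699 over 27 ratio tests). Hyou1 reads were 12.3% to 17.0% of Hspa5 reads in 16-week livers, against 17.7% to 24.4% in chow livers, again with no overlap (difference -0.46; exact permutation test, adjusted p = 0.00699). In 8-week livers they were 13.5% to 20.2%, which overlapped chow (difference -0.29; exact permutation test, adjusted p = 0.117). Pdia4, in contrast, was at a median of 23.15% of Hspa5 reads in 8-week livers and 24.05% in 16-week livers, against 24.5% in chow livers, with differences of -0.02 and -0.01 that did not pass the test (exact permutation test, adjusted p = 0.934 for each). A p above the threshold does not show that Pdia4 and Hspa5 moved alike.

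Dnajc3 reads were 16.3% to 27.9% of Hspa5 reads in 16-week livers, against 27.7% to 43.4% in chow livers (difference -0.59; exact permutation test, adjusted p = 0.0367). That call was lost when any one of chow replicates 1, 2 and 5 or 16-week replicates 1, 4, 5, 7 and 8 was left out (adjusted p 0.0511 to 0.0873). In 8-week livers Dnajc3 was at 17.4% to 26.0% of Hspa5 reads in 7 libraries and at 70.3% in replicate 3; the difference from chow was -0.51 with all libraries (adjusted p = 0.278) and -0.73 without replicate 3 (adjusted p = 0.00852, exact permutation tests). Manf was at 10.6% to 19.8% of Hspa5 reads in those 7 libraries and at 79.3% in replicate 3, against 7.85% to 9.82% in chow livers. No 8-week library overlapped chow; the difference was 0.93 with all libraries (exact permutation p = 0.0194, adjusted p = 0.105) and 0.60 without replicate 3 (adjusted p = 0.0245). In 16-week livers Manf was at 8.42% to 16.4% of Hspa5 reads, which overlapped chow (difference 0.34; exact permutation test, adjusted p = 0.117), and the difference was 0.40 and passed without 16-week replicate 8 (adjusted p = 0.0426). Ratios of Sdf2l1, Xbp1, Dnajb9 and Creld2 to Hspa5 passed in none of the 3 comparisons, and no ratio passed between 16 and 8 weeks (exact permutation tests, all libraries).

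**Figure D3:**
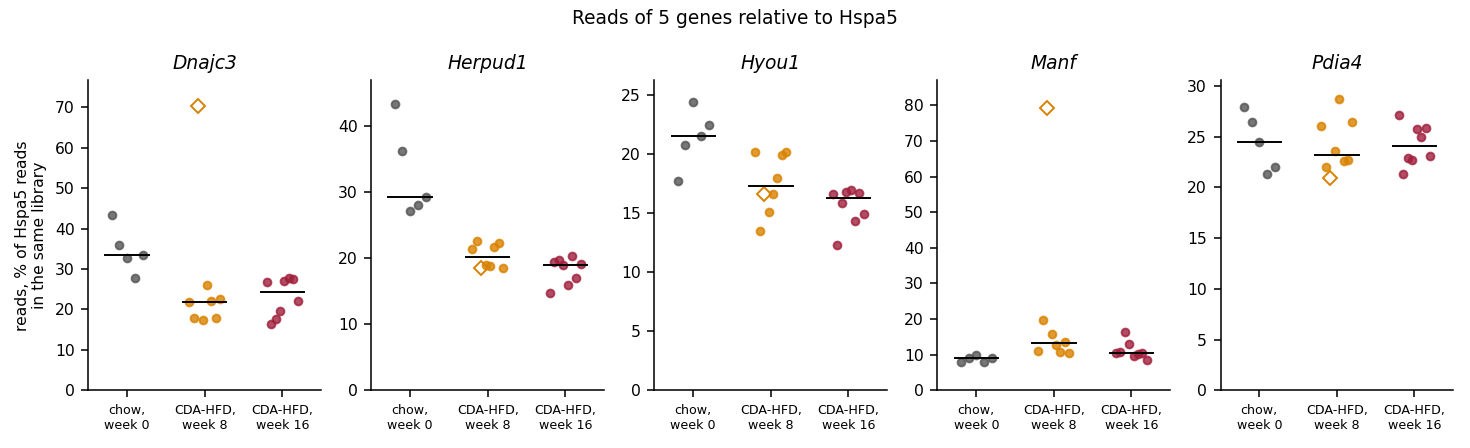
Reads of Dnajc3, Herpud1, Hyou1, Manf and Pdia4 as a percentage of Hspa5 reads in the same library (vertical axes from 0), by group; points are livers, lines are medians and the open diamond is 8-week replicate 3. Herpud1 lies at 22.6% or less in all CDA-HFD livers and at 27.1% or more in chow livers, while Pdia4 has medians of 24.5%, 23.15% and 24.05% over chow, week 8 and week 16.

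Levels can be set side by side between genes per kb of annotated exon. Hspa5 was highest in each group, at 271.4 ± 57.1, 281.7 ± 76.6 and 222.5 ± 43.4 CPM per kb over chow, week 8 and week 16 (SD, n = 5, 8 and 8). In chow livers it was followed by Herpud1 (156.9 ± 18.4), Pdia4 (114.7 ± 12.4), Xbp1 (102.4 ± 14.6) and Dnajc3 (75.2 ± 4.51 CPM per kb). The ranges of Herpud1, Pdia4 and Xbp1 overlapped from one to the next, while Hspa5 stood clear of Herpud1 and Xbp1 of Dnajc3. The 5 genes below Dnajc3, from Sdf2l1 (41.0 ± 6.49) to Dnajb9 (26.5 ± 3.45 CPM per kb), overlapped from neighbour to neighbour. In 16-week livers Herpud1 was in the fourth place by mean, after Pdia4 and Xbp1, at 73.6 ± 18.4 CPM per kb, and Hyou1 was lowest at 20.3 ± 4.71 CPM per kb. There the ranges of Pdia4, Xbp1 and Herpud1 overlapped from one to the next, as did those of Dnajb9 and Hyou1.

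Within groups, livers that were high for one of these genes tended to be high for most. Chow replicate 4 had the highest level of its group for 9 of 10 genes and chow replicate 1 the lowest for 7. Among 16-week livers, replicate 4 was highest for 9 of 10 genes and replicate 6 lowest for 6. The B and plasma cell markers summed to 1519.0 CPM in that replicate 4 and to 1160.6 CPM in that replicate 6, the highest sums of the group, and their part was not tested. In the 8-week group replicate 3 was lowest for 7 genes and highest for Dnajc3, Creld2 and Manf. Deviations from the group means over all 21 libraries followed those of Hspa5 at a Pearson r of 0.938 for Pdia4, 0.928 for Hyou1, 0.921 for Dnajb9 and 0.907 for Herpud1, and over the 20 libraries without 8-week replicate 3 at 0.826, 0.857, 0.805 and 0.742 for the same genes. For Xbp1 r was 0.742 with that library and 0.255 without it, and for Sdf2l1 0.622 and 0.542. For Creld2 and Manf r was 0.113 and -0.03 with it, and 0.878 and 0.758 without it. For Dnajc3 r was -0.141 with it and 0.252 without it. These values describe libraries that share their depth and scaling, and are given with no test.

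**Figure D4:**
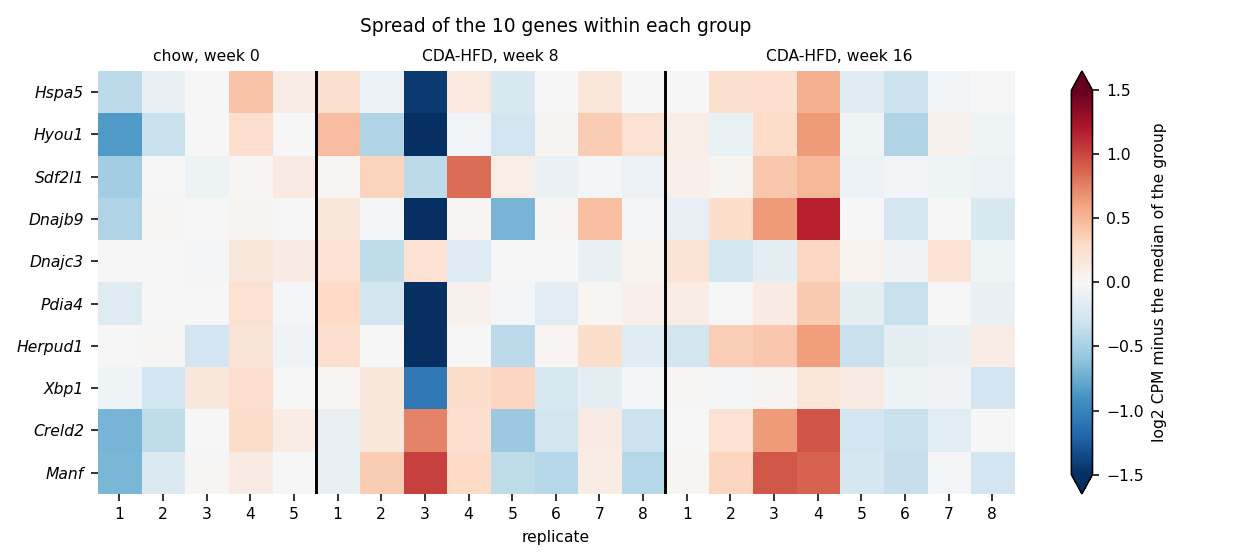
Log2 CPM of each of the 10 genes (rows) minus the median of its group, for every library (columns, by group and replicate); red is above and blue below the group median, and arrows on the scale mark values past its ends. Replicate 4 of the 16-week group is red for nearly all genes, and replicate 3 of the 8-week group is deep blue for 6 genes (-2.02 to -1.07), paler blue for Sdf2l1 (-0.39) and red for Dnajc3, Creld2 and Manf.

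The genes outside the 10 whose within-group deviations were most like those of Hspa5, among 10503 genes with a mean of at least 5 CPM, were Slc17a9 (r = 0.975), Syvn1 (0.951), Tfg (0.931), Ubfd1 (0.93), P3h1 (0.929) and Ssr1 (0.925). Slc17a9 encodes a vesicular nucleotide transporter, Syvn1 the HRD1 ubiquitin ligase of ER-associated degradation, and Ssr1 a subunit of the translocon-associated protein complex. Without 8-week replicate 3 they were Slc17a9 (0.932), Lrrc59 (0.892), Rnf185 (0.887), Syvn1 (0.859), Dnajb11 (0.857) and Srprb (0.821), so Slc17a9 and Syvn1 appeared in both sets. Dnajb11 encodes the J protein ERdj3, Rnf185 an ER ubiquitin ligase and Srprb a subunit of the signal recognition particle receptor.

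Lists of other genes of the pathway gave the setting. With TMM, 30.8% of all genes rose and 20.5% fell in 8-week livers, and 29.4% rose and 22.5% fell in 16-week livers. Of the outputs of PERK and of the integrated stress response, 11 of 17 rose and 1 fell in 8-week livers, and 6 rose and 3 fell in 16-week livers, with median log2 changes of 0.76 and 0.43. With total counts 11 rose and 1 fell in 8-week livers, and 12 rose and none fell in 16-week livers. Under that scaling 6016 of all 17104 genes rose and 1669 fell in 8-week livers. In 16-week livers 8449 of all genes rose and 986 fell, so many risers and few fallers were the rule for all genes. Trib3, a pseudokinase induced by ATF4, averaged 51.5 ± 18 CPM in 8-week and 68.3 ± 30.0 CPM in 16-week livers, against 2.67 ± 0.923 CPM in chow livers, with log2 changes of 4.27 and 4.68 (edgeR adjusted p = 2.36e-08 and 3.86e-09). The stress-induced factor Atf3 averaged 47.5 ± 23.7 and 65.5 ± 16.4 CPM in 8-week and 16-week livers, against 4.22 ± 3.95 CPM in chow livers. Nupr1, a small nuclear stress protein, averaged 39.9 ± 44.4 and 27.4 ± 4.76 CPM in 8-week and 16-week livers, against 1.07 ± 0.28 CPM in chow livers; its 8-week log2 change was 5.21 with all libraries and 4.53 without 8-week replicate 3. Ddit3, the factor CHOP, was picked after its values were seen: it rose by 2.62 and 1.71 (log2; adjusted p = 0.000853 and 0.0122). Ppp1r15b, which encodes the constitutive partner of the eIF2alpha phosphatase, fell in both diet groups, with log2 changes of -1.04 and -1.12 (adjusted p = 0.00108 and 0.000407), of which the second was -0.59 and not called with total counts (adjusted p = 0.11). Macrophage markers rose as well, 10 of 10 in 8-week and 8 of 10 in 16-week livers, and their part in these values was not tested.

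Of 24 genes of ER-associated degradation, 10 fell in 16-week livers and none rose (median log2 change -0.31), but with total counts 7 rose and none fell. With TMM, 29.4% of all genes rose and 22.5% fell at 16 weeks. Without 8-week replicate 3, 2 of the 24 rose and 15 fell with TMM. In that fit 34.9% of all genes rose and 31.4% fell. Total counts called 8449 of all 17104 genes higher and 986 lower at 16 weeks, and 6016 higher and 1669 lower at 8 weeks. Edem1, which takes mannose-trimmed glycoproteins towards degradation, averaged 165.3 ± 17.5 CPM in 16-week livers, against 320.0 ± 21.5 CPM in chow livers, with no overlap and a log2 change of -0.95 (edgeR adjusted p = 1.01e-05) that was -0.43 with total counts (adjusted p = 0.105). Sel1l, the adaptor of Syvn1, averaged 123.5 ± 13.4 CPM in 16-week livers, against 240.1 ± 18.4 CPM in chow livers (log2 change -0.96, adjusted p = 0.000937; -0.43 with total counts, adjusted p = 0.217). In 8-week livers 2 of the 24 rose and 6 fell with TMM, where 30.8% of all genes rose and 20.5% fell. Of the sensors and ER-bound factors, 4 of 14 rose and 4 fell in 8-week livers and 1 rose and 4 fell in 16-week livers, but with total counts 4 rose and none fell at 8 weeks and 6 rose and none fell at 16 weeks. Ern1, the gene of IRE1, averaged 75.9 ± 33.3 CPM in 8-week and 76.9 ± 23.0 CPM in 16-week livers, against 144.7 ± 29.5 CPM in chow livers (log2 change -0.93 and -0.91, adjusted p = 0.0195 and 0.02), and was not called with total counts (-0.70 and -0.37, adjusted p = 0.134 and 0.428). Creb3l1, an ER-bound factor expressed in collagen-secreting cells, averaged 9.77 ± 1.62 and 12.4 ± 2.62 CPM in 8-week and 16-week livers, against 1.91 ± 0.671 CPM in chow livers. Fibroblast and stellate cell markers summed to 791.1 to 1933.9 CPM in 8-week and 1627.9 to 2402.2 CPM in 16-week livers, against 300.9 to 478.6 CPM in chow livers, and their part was not tested.

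Of 25 other ER chaperones, 10 rose and 5 fell in 8-week livers, and 5 rose and 6 fell in 16-week livers. With total counts the 16-week split was 11 and 0. With TMM, 30.8% of all genes rose and 20.5% fell at 8 weeks, and 29.4% rose and 22.5% fell at 16 weeks. Without 8-week replicate 3, 7 of the 25 rose and 5 fell at 8 weeks with TMM. In that fit 31.5% of all genes rose and 25.8% fell. Fkbp11, a prolyl isomerase of secretory cells, averaged 41.9 ± 31.8 CPM in 8-week livers, against 9.14 ± 1.70 CPM in chow livers (log2 change 2.19, adjusted p = 3.85e-05; 1.75 without 8-week replicate 3). Dnajb14, an ER membrane J protein, averaged 21.1 ± 3.57 CPM in 8-week and 21.5 ± 2.37 CPM in 16-week livers, against 42.0 ± 4.06 CPM in chow livers; with total counts the first was called (adjusted p = 0.0027) and the second was not (adjusted p = 0.0822). Of 16 other disulfide isomerases and oxidases, 5 rose and 3 fell in 8-week livers and none rose and 6 fell in 16-week livers, but 5 rose and 2 fell at 16 weeks with total counts. P4hb, the gene of protein disulfide isomerase itself, averaged 2698.9 ± 332.9 CPM in 8-week livers, against 1852.3 ± 150.8 CPM in chow livers, with no overlap (log2 change 0.54, adjusted p = 0.00053). In translocation and N-glycosylation 13 of 31 rose and 2 fell in 8-week livers, and in ER to Golgi transport 12 of 25 rose and 3 fell. At 16 weeks those 2 lists had 2 up and 3 down, and 2 up and 4 down, but 21 up and none down, and 14 up and 1 down, with total counts. Between 16 and 8 weeks 12 of the 31 and 7 of the 25 fell and none rose with TMM, while with total counts 1 rose and none fell in each. With TMM, 10.6% of all genes rose and 11.0% fell there. Of all 17104 genes, total counts called 8449 higher and 986 lower at 16 weeks against chow. Between 16 and 8 weeks that scaling called 4450 higher and 245 lower. Preb, which starts COPII coat assembly, averaged 146.7 ± 23.2 CPM in 16-week livers, against 222.6 ± 45.3 CPM in 8-week livers (log2 change -0.60, adjusted p = 0.00203; -0.16 with total counts, adjusted p = 0.226). At 16 weeks against chow, edgeR with TMM and all libraries called no gene of the isomerase and degradation lists higher. None was higher at an unadjusted p under 0.05 or by DESeq2 either. Without 8-week replicate 3, 2 degradation genes and 0 genes of the isomerase list were called higher. Between 16 and 8 weeks, 0 translocation and 1 transport genes were higher at an unadjusted p under 0.05, and 0 in both lists by DESeq2. For the counts of none lower with total counts given here against chow, and for translocation and transport between 16 and 8 weeks, 0 to 2 genes were lower at an unadjusted p under 0.05.

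**Figure D5:**
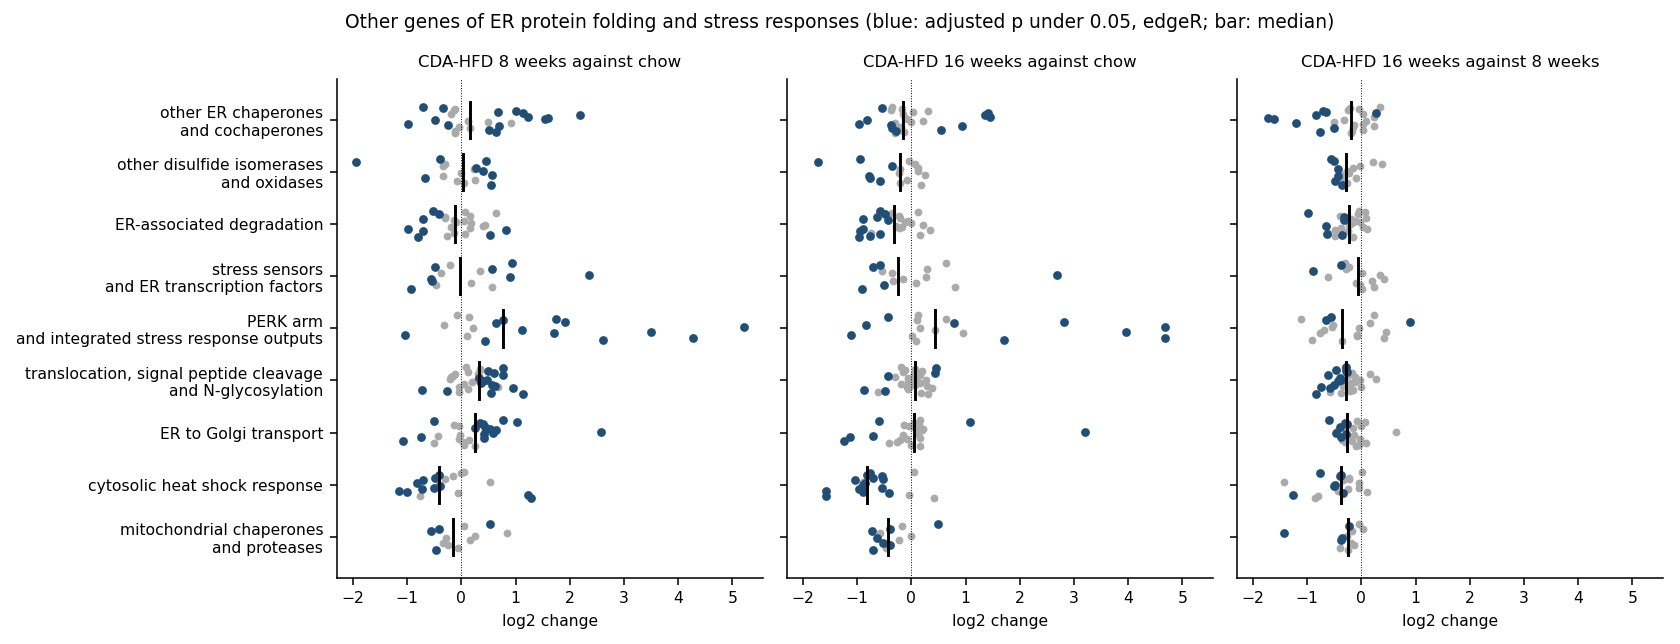
Log2 change with TMM scaling of each tested gene (points) in 9 lists of ER folding and stress genes (rows) in the 3 comparisons (panels); blue points have an edgeR adjusted p under 0.05, grey ones do not, and the black bar is the median of the list. The PERK and integrated stress response list reaches furthest right in both comparisons with chow (medians 0.76 and 0.43), and the cytosolic heat shock list has the lowest medians there (-0.41 and -0.81; -0.30 and -0.27 with total counts).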

How the data were processed

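Total RNA from 21 livers (RNeasy kit) was made into stranded total RNA libraries, per the labels' protocols. The deposited values are the authors' raw counts for each Ensembl gene, on GRCm38 (submitters' processing notes). Aligner, counting program, strand setting and annotation version: not given in the sources used here. Symbols were matched to 52489 of 52636 gene IDs with GENCODE M21. Genes passing filterByExpr (17104) were fitted with edgeR 4.0.16 (TMM factors, quasi-likelihood test, one model over the 3 groups, no covariates) in R 4.3.3; CPM and log2 changes were computed from the deposited counts. Ratios to Hspa5 used counts plus 0.5 and exact permutation tests (scipy 1.17.1). Alternatives were DESeq2 1.42.0, its size factors, total counts, no filter, only the compared groups, and libraries left out. The edgeR steps were tested on simulated data. Of each list at most 3 called genes per direction and comparison, of largest change and at least 5 CPM, could be named. The 10 genes and the lists were chosen with earlier results of these data known. Replicate numbers follow listing order. Counting error is small at 309 or more reads per gene and library.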

Additional observations from a re-analysis of the deposited data

Results flagged for a closer look

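Of 30 groups of values (10 genes in 3 groups), 4 had 1 library whose gap to its nearest neighbour took a share of the group's range above Dixon's 95% critical value. Chance alone flags about 1 in 20 independent groups, but these groups share their libraries, and 3 of the 4 come from 8-week replicate 3, so the number of such groups is not set against chance. In 8-week replicate 3, Hspa5 was at 462.9 CPM, against 1072.9 to 1485.8 CPM in the other 7. Pdia4 was at 96.65 CPM in the same library, against 259.6 to 386.9 CPM in the other 7. Manf was at 367.3 CPM there, against 133.8 to 234.2 CPM in the other 7, so this library was low for the first 2 genes and high for the third. Its squamous and muscle marker sums were 1775.3 and 2725.0 CPM and its mitochondrial share was 0.25%; their part in these values was not tested. Dnajb9 was at 51.89 CPM in chow replicate 1, against 70.79 to 72.70 CPM in the other 4 chow livers.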

How the results depend on the processing

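The number of genes called at 8 weeks against chow was 3, and 2 to 4 when 1 library was left out. At 16 weeks against chow it was 3: leaving out 1 library gave 3 to 5, fitting only the groups compared gave 5, leaving out 8-week replicates 3, 4 and 5 gave 5, and leaving out the 5 libraries with squamous markers gave 6. Of all genes, fitting only the groups compared called 5999 higher and 5850 lower of 16779. Without 8-week replicates 3, 4 and 5 it was 5935 and 5373 of 16984, and without the 5 squamous libraries 5678 and 5129 of 16615. Between 16 and 8 weeks the number of the 10 genes called was 4. It was 0 with total counts (edgeR, 1 at an unadjusted p under 0.05) and 2 with no filter on low counts. It was 7 without 8-week replicates 3, 4 and 5 and 10 without the 5 squamous libraries. With 1 library left out it was 3 to 10 (10 without 8-week replicate 3, 7 without 16-week replicate 4). Of all genes, total counts called 4450 higher and 245 lower of 17104, and no filter 1767 and 1082 of 30505. Without 8-week replicates 3, 4 and 5 it was 1649 and 922 of 16984, and without the squamous libraries 2941 and 2638 of 16615. Without 8-week replicate 3 alone it was 2527 and 2123 of 17033, and without 16-week replicate 4 1826 and 1699 of 16976. For the 10 genes, DESeq2's size factors kept the 3 counts, and its own test gave 3, 3 and 5.

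Apart from Dnajc3 between 16 and 8 weeks, signs that turned belonged to changes that were not called. With total counts the 16-week changes from chow were 0.239 (Hspa5), 0.438 (Sdf2l1), 0.269 (Xbp1), 0.251 (Dnajb9), 0.238 (Pdia4) and 0.101 (Creld2), and from 8 weeks 0.049 (Xbp1) and 0.028 (Dnajc3). At 8 weeks Xbp1 was -0.001 with DESeq2's size factors, -0.001 with its test and -0.029 in the fit of the groups compared, where Hspa5 was -0.021 and Pdia4 -0.001. With 1 library left out, 8-week changes ran from -0.036 to 0.171 for Hspa5 and from -0.024 to 0.136 for Xbp1, the 16-week change of Manf from -0.018 to 0.182, and the Dnajc3 to Hspa5 ratio between 16 and 8 weeks from -0.15 to 0.13. The causes of the turned signs were not tested. Total counts and TMM scaling differed by a shift in the median of all genes. Which scaling is right was not tested, and the counts alone do not decide it. No paired analysis was possible because the labels carry no replicate numbers shared between groups. In all other settings with 1 library left out, the direction of each called gene held.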

Other observations

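Of 19 genes of the cytosolic heat shock response, 2 rose and 9 fell in 8-week livers and none rose and 15 fell in 16-week livers against chow (median log2 change -0.41 and -0.81), where 20.5% and 22.5% of all genes fell. Without 8-week replicate 3, none rose and 14 fell at 8 weeks. In that fit 31.5% of all genes rose and 25.8% fell. With total counts 2 rose and 3 fell at 8 weeks and 1 rose and 3 fell at 16 weeks (median -0.30 and -0.27). Of all 17104 genes, 1669 and 986 fell under that scaling. Hsph1, an Hsp110-type exchange factor for cytosolic Hsp70, averaged 44.6 ± 12.1 CPM in 8-week and 33.2 ± 5.56 CPM in 16-week livers, against 99.0 ± 35.0 CPM in chow livers, with log2 changes of -1.15 and -1.58 (edgeR adjusted p = 0.000144 and 2.06e-06). Both held with total counts, at -0.96 and -1.05 (adjusted p = 0.00636 and 0.0022). Hspb8, a small heat shock protein, averaged 176.3 ± 49 CPM in 8-week and 139.9 ± 11.4 CPM in 16-week livers, against 288.2 ± 67.6 CPM in chow livers; with total counts the 16-week change was -0.52 and not called (adjusted p = 0.0957). No gene of the list was higher at 16 weeks at an unadjusted p under 0.05 or by DESeq2.

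Of 12 mitochondrial chaperones and proteases, 1 rose and 3 fell in 8-week livers and 1 rose and 6 fell in 16-week livers. Of all genes, 30.8% rose and 20.5% fell at 8 weeks, and 29.4% rose and 22.5% fell at 16 weeks. With total counts 1 and 2 of the 12 rose and none fell (1 and 0 fell at an unadjusted p under 0.05). That scaling called 6016 of all 17104 genes higher and 1669 lower at 8 weeks. At 16 weeks it called 8449 higher and 986 lower. Hspd1, the mitochondrial Hsp60, averaged 24.4 ± 3.18 CPM in 8-week and 20.6 ± 1.64 CPM in 16-week livers, against 33.5 ± 3.25 CPM in chow livers, and was not called with total counts (adjusted p = 0.149 and 0.397). Mitochondrial genes took 2.22% to 3.18% of the counts in CDA-HFD libraries other than 8-week replicate 3, against 4.23% to 5.34% in chow libraries; their part was not tested.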
